A study of Mus musculus with 4 samples.

Results

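The genes described are 10 components of the circadian clock, Arntl, Npas2, Nr1d1, Nr1d2, Per1, Per2, Per3, Dbp, Tef and Ciart, chosen by symbol from the 32285 genes of the files. They were measured in single-cell RNA sequencing libraries of perfused and digested mouse liver. According to the methods of the study, the animals were male C57BL/6J mice. There was 1 library from a mouse on the control diet (NCD), 2 libraries from mice on a high-fat diet (HFD) and 1 library from a mouse on the high-fat diet that was also given the herbal formula JQF by mouth, late in a diet that lasted for months. The NCD and HFD mice received distilled water in its place, and all livers were perfused, digested and freed of red cells. NCD and JQF had no replicate, so each is 1 animal and the spread between animals was known for HFD alone. The hour of the day at which each liver was taken is not given in the sources used here, so for genes whose level follows the time of day a difference of diet, of animal and of sampling hour cannot be told apart.

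The molecular clock is a feedback loop. ARNTL, also called BMAL1, pairs with CLOCK or with its relative NPAS2, and the pair binds E-box sequences and switches on the Per and Cry genes, whose proteins return to block it. The same activators drive Nr1d1 and Nr1d2, which encode the REV-ERB repressors of Arntl, and Ciart, another repressor of the activator pair. Dbp and Tef encode PAR bZIP factors that bind D-box sequences and carry the rhythm to output genes, many of them for liver metabolism. In a running clock Arntl and Dbp therefore peak in opposite parts of the day. Per1 is also an early response gene that glucocorticoid and cAMP signals induce.

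RefSeq start-site windows of 300 bases on GRCm38.p6, from 250 bases before to 50 bases after the annotated start, were found for 9 of the 10 genes. The E-box CACGTG, read on both strands, was found in 4 of the 12 windows of these genes, 1 each of Ciart and Per1 and 2 of Tef, against 7.15% of all 32851 windows. The D-box letters TTATGNAA occurred in 2 of the 12, of Per1 and Per3, against 3.38% of all windows, and the ROR element TAGGTCA, to which the REV-ERB repressors bind, in 1 of the 12, of Arntl, against 2.61%. The 4 stretches that follow are shown because they hold letters that factors of the loop are known to bind, in genes of the loop itself. Motif letters are in capitals, and each run is written 5′ to 3′ on the strand of the gene. The Ciart run lies at chr3:95882255-95882356 on the minus strand, just before the gene, and holds 3 E-boxes. The Per1 run at chr11:69098771-69098944 on the plus strand holds an E-box and then a D-box and lies before the start of 1 Per1 transcript, inside an intron of a longer one. The Per3 run at chr4:151044804-151044882 on the minus strand holds 2 D-boxes upstream of the gene. The Arntl run at chr7:113207530-113207558 on the plus strand lies in the 5′ untranslated region and holds the ROR element.
Ciart: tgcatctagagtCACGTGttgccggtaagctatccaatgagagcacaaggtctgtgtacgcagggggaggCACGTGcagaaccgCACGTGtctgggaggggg
Per1: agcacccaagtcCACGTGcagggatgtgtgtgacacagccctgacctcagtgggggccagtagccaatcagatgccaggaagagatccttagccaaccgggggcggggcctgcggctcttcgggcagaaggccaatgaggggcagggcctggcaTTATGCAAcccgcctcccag
Per3: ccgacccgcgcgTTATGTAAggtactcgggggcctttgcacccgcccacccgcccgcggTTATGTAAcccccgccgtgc
Arntl: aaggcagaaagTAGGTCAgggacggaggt
A match of letters in these windows is a description and not a measured binding site.

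Cells passed with 500 genes or more and no more than 20% of UMIs from mitochondrial genes, which left 31290 cells, 5975 to 10259 per library, with 67615639 to 108062769 UMIs per library. A UMI marks 1 captured molecule, and levels are given in CPM, the counts of a gene relative to all UMIs of the summed cells of a type in a library, scaled to 1000000. NCD was the deepest library, with a median of 13081 UMIs per cell against 7608 to 8884 in the others. Cell types were read from fixed marker lists, so each name stands for cells with those markers, and 8.28% to 14.4% of the cells of a library were left without a name. The sample labels call the material immune cells, whereas 5626 endothelial cells and 522 hepatocytes were among those named. In the endothelial cells Kdr was detected in 95.4% and Clec4g in 96.1%, and Alb was detected in 97.5% of the hepatocytes. For 7 types, T cells, B cells, dendritic cells (DC), macrophages, neutrophils, endothelial cells and hepatocytes, every library held at least 50 cells, and these were tested. NK cells (35 in NCD) and monocytes (36 in NCD) are described without a test. The libraries shared 12 to 27 cell barcodes pairwise, at most 0.316% of a library.

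The clock genes differed in where they were expressed. Per1 was highest in neutrophils, at 235 to 323 CPM across the 4 libraries, and no other type reached that range. B cells, T cells and NK cells followed with medians of 84.7 to 90.1 CPM and overlapping ranges, and hepatocytes were lowest at 17.8 to 34.6 CPM. The output genes Dbp and Tef were highest in hepatocytes. Dbp spanned 20.8 to 141 CPM there and Tef 49.1 to 71.3 CPM, and neither range overlapped that of the next type, the endothelial cells. For Dbp the gap was narrow: the highest endothelial value was 20.5 CPM, and the lowest hepatocyte value, in NCD, rested on 14 UMIs. Arntl had medians of 61.1 to 68.7 CPM in B cells, T cells, NK cells and endothelial cells, whose ranges overlapped. Macrophages came next for Arntl at 20.0 to 27.8 CPM, below all of these, and neutrophils were last at 1.77 to 10.7 CPM. The partner gene Npas2 was low throughout. Its highest medians were 6.95 CPM in T cells and 6.55 CPM in endothelial cells, whereas the B cell median was 0.225 CPM. Nr1d1 had its highest median in endothelial cells (64.7 CPM), followed by hepatocytes (32.4 CPM) and macrophages (13.3 CPM), and all 3 ranges overlapped, with NCD the lowest library in endothelial cells and the highest in macrophages. In DC, the Nr1d1 median was 0.209 CPM. Nr1d2 was spread more evenly, with medians of 35.4 to 72.1 CPM in 6 types and 3.08 CPM in neutrophils. By an estimate from Alb, RNA outside cells could make up 26.3% to 68.5% of that neutrophil level of Nr1d2 and 22.4% to 42.5% of the neutrophil level of Arntl, and in at least 1 library it exceeded the whole Nr1d1 level of B cells and of DC, so values this close to the estimate are not read as expression. Per2 and Ciart had their highest medians in neutrophils, at 36.5 and 18.3 CPM, and the ranges of both overlapped those of hepatocytes, the next type. Per3 was below 21 CPM in every type and had its highest median in hepatocytes, where it ranged from 4.49 to 20.4 CPM and overlapped the endothelial range of 5.00 to 13.5 CPM.

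**Figure D1:**
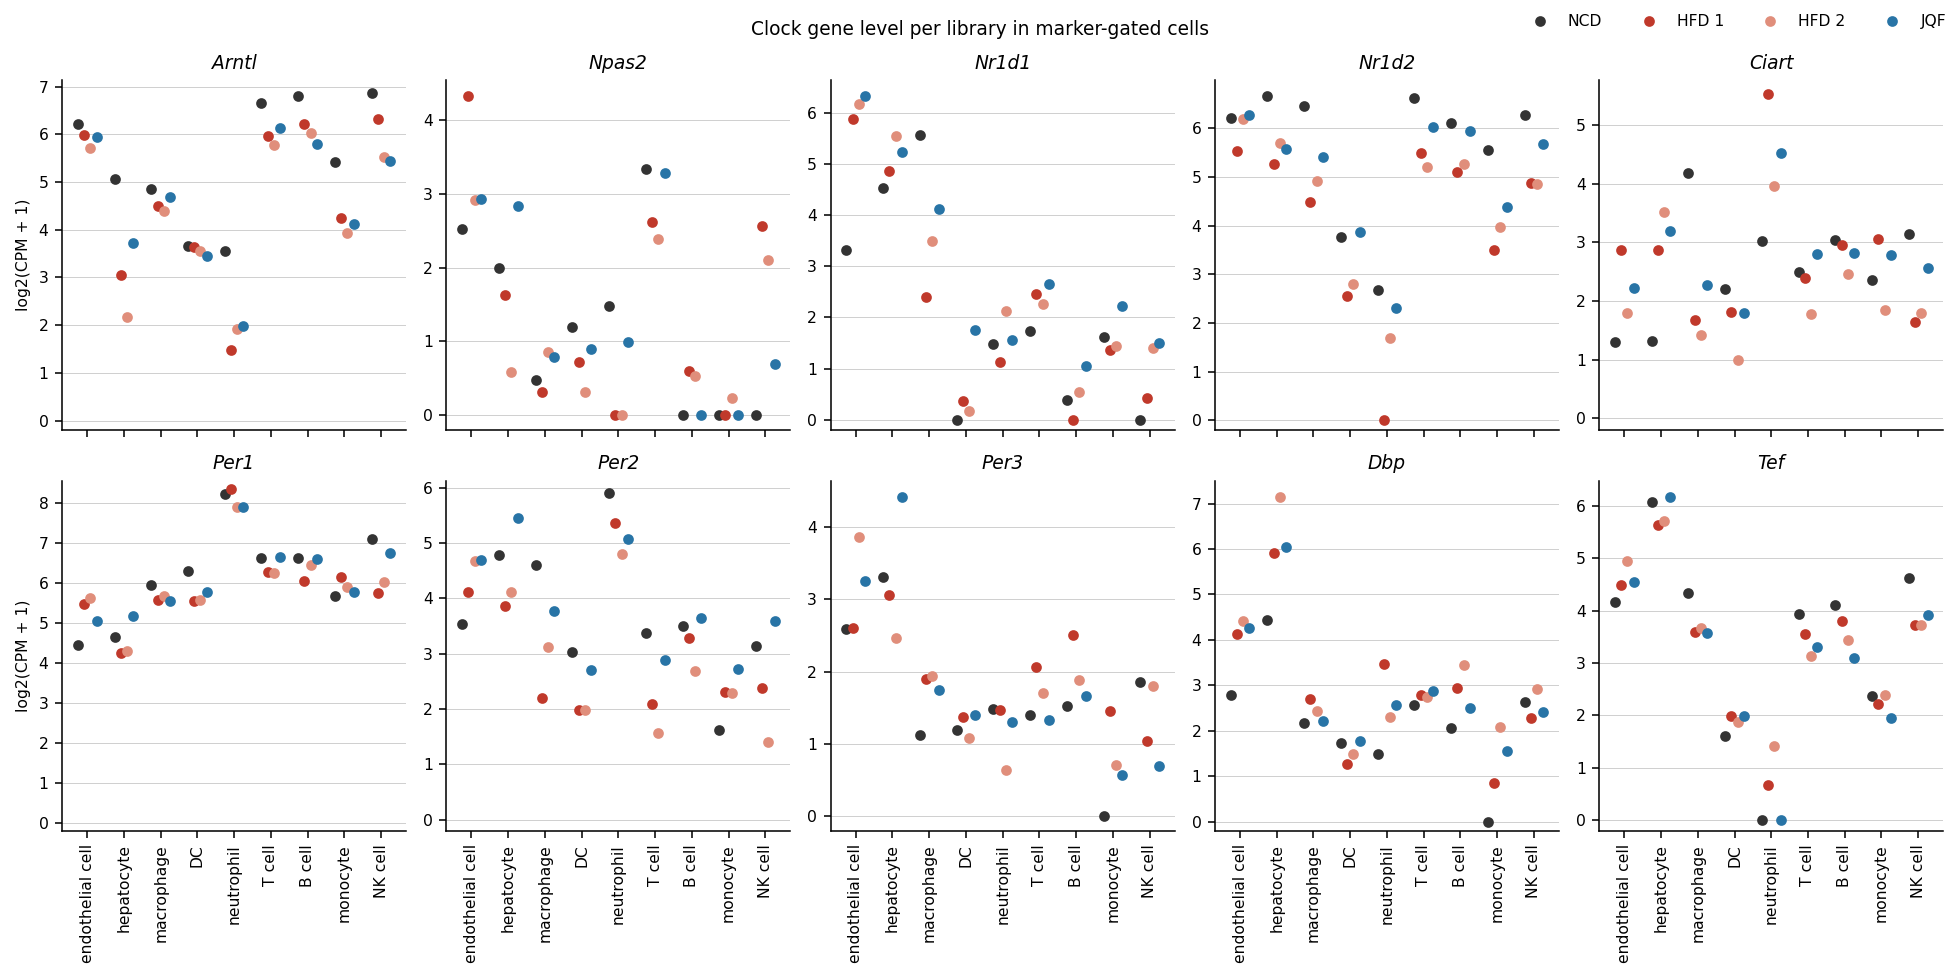
Level of each clock gene as log2(CPM + 1) in the summed cells of each marker-gated type, 1 point per library. Per1 stands apart in neutrophils (235 to 323 CPM) and Tef in hepatocytes, whereas the lowest Dbp point of hepatocytes lies close to the highest of endothelial cells. The NCD point of Nr1d1 lies below the other libraries in endothelial cells and above them in macrophages.

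The first question was which clock genes differed between the HFD mice and the NCD mouse. Of the 70 pairs of a clock gene and a tested type, 60 passed the filter on low counts and 14 of these changed at an adjusted p under 0.05 in the quasi-likelihood test of edgeR, 4 upward and 10 downward. The spread in this test comes from the HFD pair, pooled over the genes of a type, and NCD was assumed to vary like it. With 1 residual degree of freedom a p value depends largely on that pooling. It does not measure how a single gene varies between mice, nor does it rank changes across types. With DESeq2, 6 of the 60 were called, the endothelial Nr1d1, the 3 macrophage genes and both T cell genes described next, where DESeq2 called 4.87% of all genes in endothelial cells, 5.57% in macrophages and 6.76% in T cells. Its share was 1.81% in B cells, 8.78% in DC, 5.05% in hepatocytes and 2.71% in neutrophils, where it called no clock gene. In endothelial cells 3 of 10 clock genes rose and none fell, where 15.6% of all 13605 genes tested were called. In macrophages 3 of 9 fell (8.83% of 13064 genes), in DC 3 of 10 fell (21% of 14358 genes), in T cells 2 of 10 fell (6.43% of 14882 genes) and in B cells 2 of 8 fell (18.4% of 10989 genes). In neutrophils 1 of 5 rose (12.6% of 8486 genes). Among hepatocytes none of 8 was called by edgeR, where 0% of all 8977 genes were. There 2 of the 8 had an unadjusted p under 0.05 in edgeR, as did 2871 of the 8977 genes. The median log2 fold change of the clock genes was 0.99 in endothelial cells against 0.01 for all genes tested there, whereas it was -0.68 in macrophages (0.06 for all genes), -0.74 in DC (0.10), -0.59 in T cells (0.08), -0.51 in B cells (0.08), -0.36 in hepatocytes (-0.02) and -0.07 in neutrophils (0.11). Fewer cells of a subtype and less RNA per cell cannot be told apart in these sums.

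**Figure D2:**
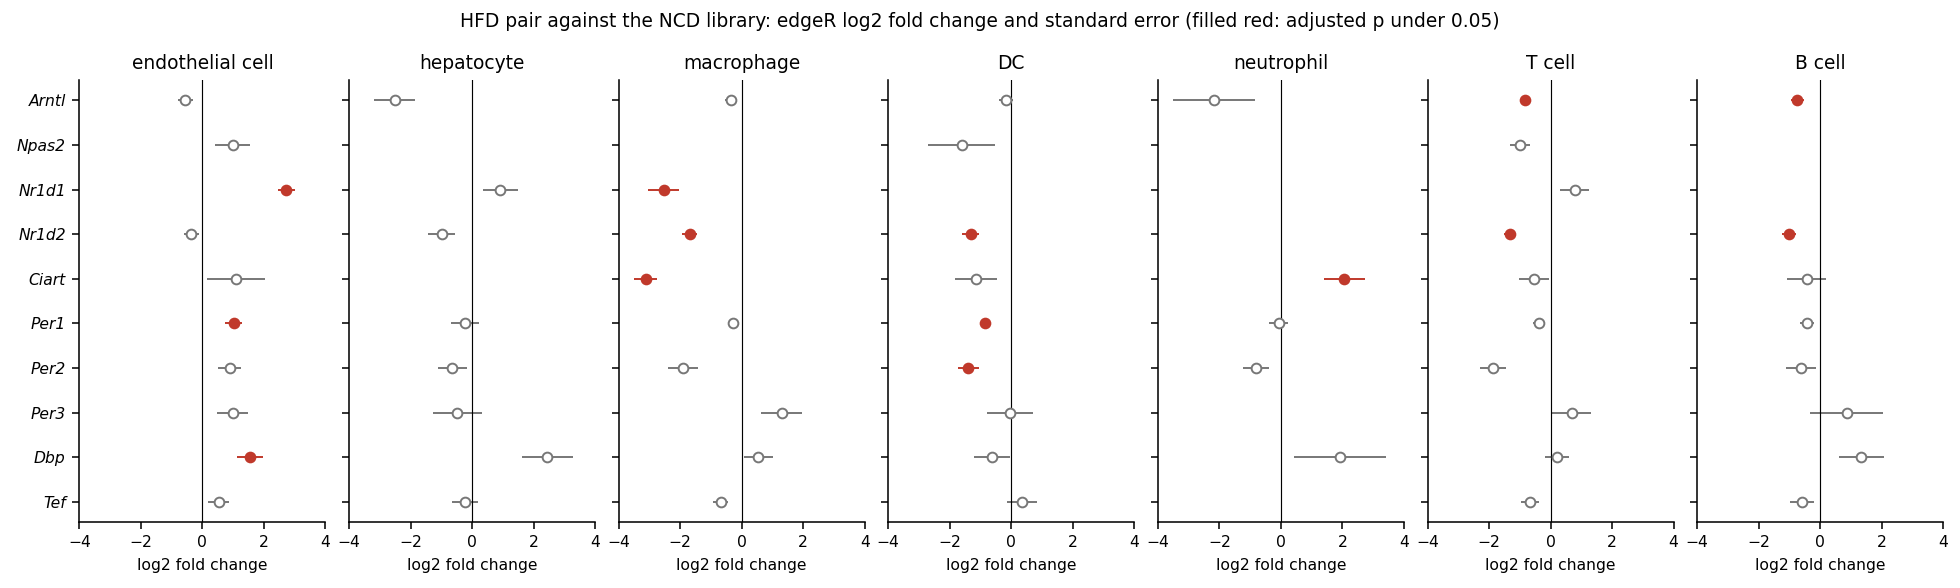
The log2 fold change of each clock gene between the HFD pair and the NCD library, by cell type, with its standard error worked back from the F statistic. Filled red points passed an adjusted p of 0.05 in edgeR. Pairs that failed the filter, and Nr1d1 in DC where NCD had 0 UMIs, are not drawn. Red points lie right of 0 in endothelial cells and neutrophils and left of it in macrophages, DC, T cells and B cells.

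Nr1d1, the REV-ERB alpha repressor, showed the largest change among the clock genes of endothelial cells. Its level was 9.04 CPM in NCD (610 UMIs in 3746 cells), 58.1 and 71.2 CPM in the HFD libraries (46 and 601 UMIs) and 78.9 CPM in JQF (407 UMIs). NCD was thus the low library and the other 3 lay together. The HFD mean of 64.7 ± 9.25 CPM (SD, n = 2) was 7.15 times the NCD level. In edgeR the log2 fold change was 2.73 (SE 0.29, adjusted p = 4.33e-19). Dbp, the output factor, went the same way. It was 5.94 CPM in NCD, 16.4 and 20.5 CPM in HFD and 18.2 CPM in JQF, again with NCD below the other 3. The edgeR log2 fold change of Dbp was 1.54 (SE 0.43, adjusted p = 0.00402), and the HFD_1 value rested on 13 UMIs. Per1 rose from 20.8 CPM in NCD to 43.0 and 48.5 CPM in HFD, with a log2 fold change of 1.02 in edgeR (SE 0.28, adjusted p = 0.00303). DESeq2 called neither Dbp (adjusted p = 0.28) nor Per1 (0.355). Endothelial Arntl was 73.0 CPM in NCD, 61.9 and 51.3 CPM in HFD and 60.3 CPM in JQF (edgeR log2 fold change -0.55, adjusted p = 0.127), and Nr1d2 was 72.5 CPM in NCD against 45.5 and 71.8 CPM in HFD, so that NCD lay within 1 CPM of one HFD library.

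The endothelial cells of NCD were not the same mixture as the others. Of the 3746 NCD endothelial cells, 3481 lay in clusters made up to more than 80% of NCD cells, whereas 3, 23 and 73 cells of HFD_1, HFD_2 and JQF did. Nr1d1 was lower in NCD than in each other library in all clusters compared with at least 20 cells a library. Clusters 3 and 11, counting all their cells, held 2271 and 1355 cells of NCD but at most 20 of an HFD library. Most NCD endothelial cells therefore had few or no HFD cells of their own cluster to be compared with. In cluster 8, led by Lyve1 and Fabp4, it was 3.07 CPM in NCD, 48.0 and 70.7 CPM in HFD and 75.4 CPM in JQF. In cluster 19, led by Rspo3, Selp and Vwf, it was 22.0 CPM in NCD, 66.5 and 82.8 CPM in HFD and 116 CPM in JQF. Clusters 8 and 19 held only 85 and 73 cells of NCD, so both NCD levels rested on few cells. With the cells of the NCD clusters left out, an alternative added after seeing the data, 265, 102, 1153 and 526 cells remained and the edgeR log2 fold changes were 3.27 for Nr1d1 (adjusted p = 9.52e-17) and 1.68 for Dbp (adjusted p = 0.0053). Per2, which was 10.6 CPM in NCD, 16.4 and 24.5 CPM in HFD and 24.8 CPM in JQF over all endothelial cells (edgeR adjusted p = 0.0896), passed the test in these cells with a log2 fold change of 1.23 (adjusted p = 0.0282). The Per1 call was lost there: its log2 fold change was 0.36 (edgeR adjusted p = 0.452), with NCD at 35.9 CPM against 43.6 and 48.3 CPM in HFD.

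**Figure D3:**
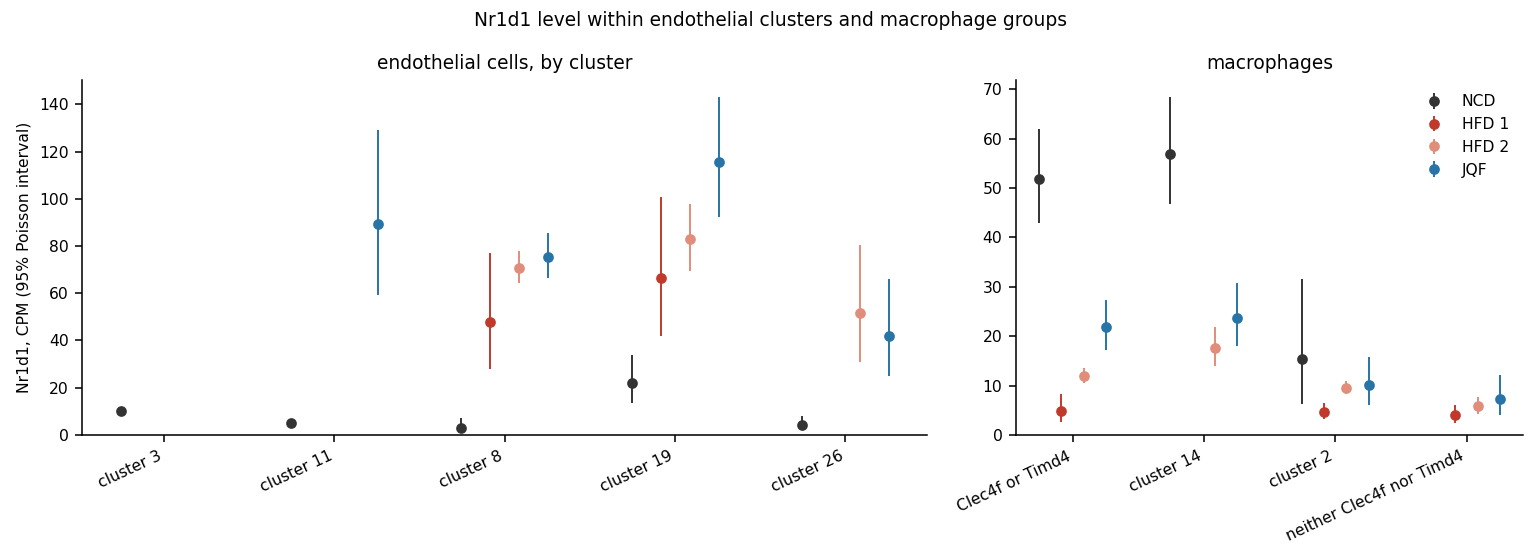
Nr1d1 level in CPM with its 95% Poisson interval, in endothelial clusters (left) and in macrophages with or without Clec4f or Timd4 UMIs and in macrophage clusters 14 and 2 (right), 1 point per library with at least 20 cells. NCD lies between 3.07 and 22.0 CPM in the endothelial clusters, below each other library drawn in the same cluster, and at 51.8 CPM, above the others, in macrophages with Clec4f or Timd4; in macrophage cluster 2 it lies at 15.3 CPM with a wide interval.

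In macrophages the same gene moved the other way. Nr1d1 was 46.6 CPM in NCD (119 UMIs in 152 cells), 4.31 and 10.2 CPM in HFD and 16.4 CPM in JQF. NCD was the high library here, at 6.41 times the HFD mean, and JQF lay between the groups. The edgeR log2 fold change was -2.54 (SE 0.50, adjusted p = 0.0497), which is close to the threshold, and the call was lost with the stricter cell filter (adjusted p = 0.0636), with DESeq2 size factors (0.0561) and with types from clusters (0.102). Without HFD_2 it was -3.41 and without HFD_1 -2.13. Nr1d2, the REV-ERB beta repressor, fell from 86.1 CPM in NCD to 21.4 and 29.0 CPM in HFD, with 41.7 CPM in JQF (edgeR log2 fold change -1.69, SE 0.24, adjusted p = 0.0363). Ciart fell from 17.2 CPM to 2.22 and 1.66 CPM, with 3.82 CPM in JQF (edgeR log2 fold change -3.12, SE 0.38, adjusted p = 0.0329). Per2 had 23.5 CPM in NCD, 3.57 and 7.68 CPM in HFD and 12.7 CPM in JQF, with an edgeR log2 fold change of -1.92 that missed the threshold (adjusted p = 0.0724). For all 4 genes the NCD library was the highest and JQF the second. Tef and Per1 were also highest in NCD, at 19.2 and 60.7 CPM, but lowest in JQF, at 10.9 and 45.9 CPM. Dbp and Per3 were lowest in NCD, at 3.52 and 1.17 CPM. The summed level of 13 immediate early and dissociation genes in macrophages had the order of Nr1d1, Nr1d2, Ciart and Per2. It was 16149 CPM in NCD, 11163 CPM in JQF and 5631 and 7884 CPM in the HFD pair, and its part in these values was not tested. Arntl, at 27.8 CPM in NCD and 20.0 to 24.8 CPM in the others, did not pass the test (edgeR adjusted p = 0.249).

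With types taken from clusters, none of the 3 macrophage calls held, at edgeR adjusted p values of 0.0742 for Ciart and 0.0756 for Nr1d2. In that fit 0 of 13146 genes were called, and the log2 fold changes stayed near those above, at -3.06 for Ciart, -2.32 for Nr1d1 and -1.53 for Nr1d2. Macrophages with UMIs of Clec4f or Timd4, both markers of Kupffer cells, the resident macrophages of liver, made up 138 of the 152 macrophages in NCD, 188 of 565 and 1624 of 2303 in HFD and 264 of 409 in JQF. Within them the edgeR log2 fold changes were -2.41 for Nr1d1 (adjusted p = 0.0184), -1.61 for Nr1d2 (0.00746), -3.11 for Ciart (0.015) and -1.75 for Per2 (0.0265). Nr1d1 in these cells was 51.8 CPM in NCD, 4.91 and 11.99 CPM in HFD and 21.8 CPM in JQF. This restriction was also added after seeing the data. The groups still lay in different clusters. Cluster 14, led by C6, Cd163 and Timd4, held 103 macrophages of NCD, none of HFD_1, 422 of HFD_2 and 192 of JQF, and Nr1d1 was 56.9 CPM in NCD, 17.6 CPM in HFD_2 and 23.8 CPM in JQF. Cluster 2, led by Cd5l and C1qa, held 42 of NCD, 481 and 1667 of HFD and 147 of JQF. Nr1d1 there was 15.3 CPM in NCD (7 UMIs), 4.69 and 9.47 CPM in HFD and 10.1 CPM in JQF, so that NCD stood out less. Nr1d2 in cluster 2 was 112 CPM in NCD, 21.8 and 28.5 CPM in HFD and 35.7 CPM in JQF, with NCD well above the others.

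The difference between types was tested itself, by edgeR fits over endothelial cells and 1 other type together with library, type and type by group as terms. The HFD against NCD change of Nr1d1 was lower in macrophages than in endothelial cells (difference -5.18 on the log2 scale, SE 0.38, edgeR adjusted p = 5.63e-08), where 6.25% of 14755 genes differed. Ciart (difference -4.14, SE 0.87), Per2 (-2.67, SE 0.45), Per1 (-1.22, SE 0.29) and Nr1d2 (-1.21, SE 0.29) also differed between these types at edgeR adjusted p values up to 0.0126. In T cells, where 6.3% of 16453 genes differed from endothelial cells, Per2 (-2.78, SE 0.54), Npas2 (-1.90, SE 0.63), Nr1d1 (-1.88, SE 0.53) and Per1 (-1.36, SE 0.34) did so. Npas2 in endothelial cells was 4.76 CPM in NCD, 6.52 CPM in HFD_2 and 6.59 CPM in JQF, and 18.95 CPM in HFD_1 on 15 UMIs in 105 cells, so the endothelial side of its difference rests mostly on HFD_1. In DC it was Per2 (-2.10, SE 0.53) and Per1 (-1.68, SE 0.30), with 10.6% of 16166 genes, and in B cells Per1 (-1.45, SE 0.33), with 4.48% of 13271 genes. No clock gene passed in hepatocytes or neutrophils, where 11.9% and 5.79% of genes did. The types compared came from the same 4 libraries, and these fits were added after seeing the data, with endothelial cells as the reference in each. Each fit leaves 1 residual degree of freedom, so its p values depend largely on pooling over genes.

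In T cells, 2 genes of the loop fell. Nr1d2 was 97.5 CPM in NCD, 44.2 and 36.0 CPM in HFD and 64.2 CPM in JQF, in which NCD was highest and JQF second. Its edgeR log2 fold change was -1.32 (SE 0.18, adjusted p = 0.016). Arntl was 99.4 CPM in NCD, 61.5 and 53.5 CPM in HFD and 69.3 CPM in JQF (edgeR log2 fold change -0.83, SE 0.17, adjusted p = 0.0423). Per2 followed the same order, with 9.33 CPM in NCD, 3.26 and 1.98 CPM in HFD and 6.36 CPM in JQF, and its log2 fold change of -1.88 just missed the threshold (edgeR adjusted p = 0.0536). Within the T cells, the level of Npas2 depended on the lineage markers. Cells with Cd8a or Cd8b1 and no Cd4 UMI held Npas2 at 0 to 0.851 CPM, whereas cells with Cd4 and neither Cd8 gene held 7.24 to 12.3 CPM and cells with none of these UMIs 13.2 to 20.1 CPM, so the 3 groups did not overlap. With types from clusters the Arntl call was lost (adjusted p = 0.0508). In the cells with Cd8a or Cd8b1, a restriction added after seeing the data, both calls were lost, with a log2 fold change of -0.93 for Arntl (edgeR adjusted p = 0.0535) and -0.83 for Nr1d2 (0.112). The T cells of the libraries also lay in different clusters. Cluster 1, led by Il4, Cd40lg and Zbtb16, held 226 of the 733 T cells of NCD, 279 of 1995 and 284 of 2053 of the HFD pair and 1868 of the 3570 of JQF, whereas cluster 6, led by Pdcd1, Gzmk and Cd8a, held 205, 537, 780 and 151 in the same order. Nr1d2 in cluster 1 was 153 CPM in NCD, 46.8 and 49.6 CPM in HFD and 66.1 CPM in JQF, and in cluster 6 it was 85.6 CPM in NCD, 45.9 and 29.8 CPM in HFD and 95.2 CPM in JQF, the highest there. NCD lay above both HFD libraries in all 6 T cell clusters compared for Nr1d2, and in 5 of 6 for Arntl, the exception being cluster 20, where NCD had 13 cells. Nr1d2 in NCD was 65.5 CPM in those with Cd8a or Cd8b1 and 107 and 147 CPM in the other T cells, whereas in JQF it was 66.4, 62.3 and 62.4 CPM in the same order.

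**Figure D4:**
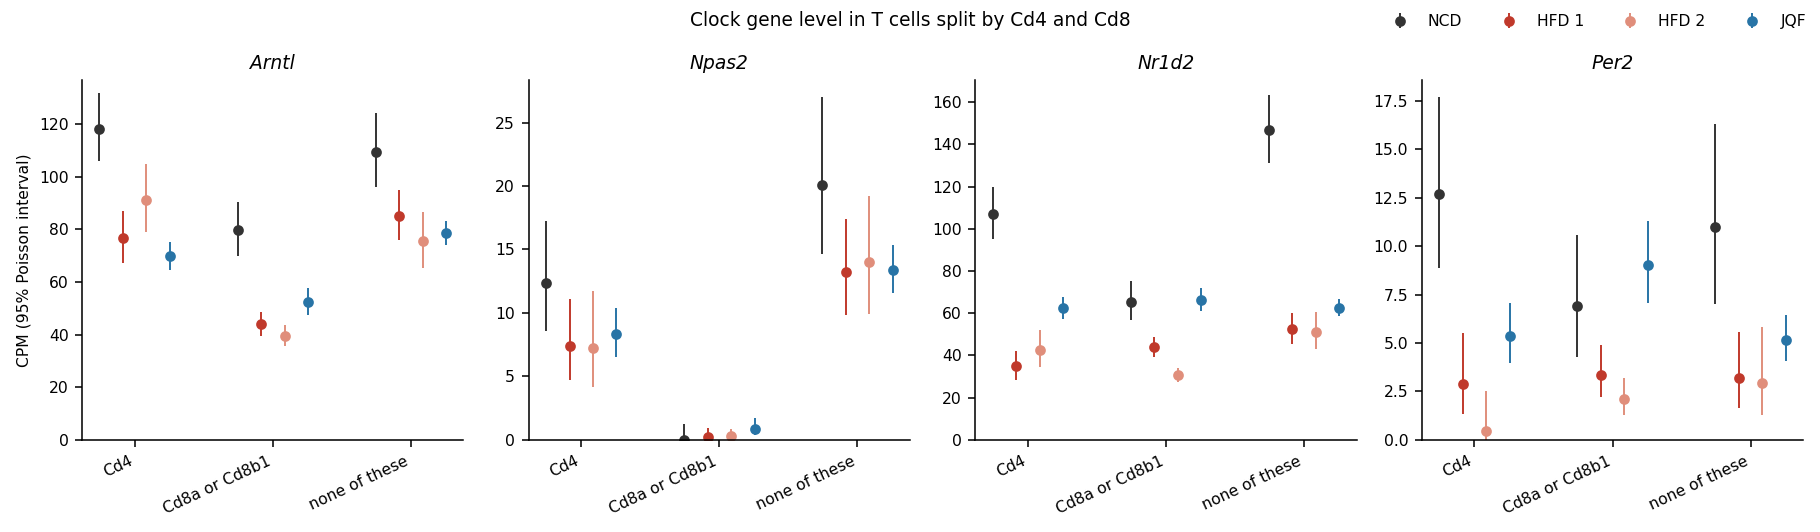
Level in CPM with its 95% Poisson interval of 4 clock genes in T cells with Cd4 UMIs only, with Cd8a or Cd8b1 UMIs only, and with none of these, 1 point per library. Npas2 is at most 0.851 CPM in the Cd8a or Cd8b1 cells, and the NCD point of Nr1d2 stands above the HFD points in every T cell group.

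In B cells Arntl and Nr1d2 fell as well. Arntl was 110 CPM in NCD, 73.0 and 64.4 CPM in HFD and 54.9 CPM in JQF (edgeR log2 fold change -0.75, SE 0.21, adjusted p = 0.0336), so that NCD lay above all others. Nr1d2 was 68.2 CPM in NCD, 33.1 and 37.4 CPM in HFD and 60.6 CPM in JQF (edgeR log2 fold change -1.01, SE 0.24, adjusted p = 0.0169). DESeq2 called neither, at adjusted p values of 0.649 and 0.534. Without the TMM factor the Arntl call was lost as well (edgeR adjusted p = 0.0643). The 2 types without a test showed the same order. In NK cells Nr1d2 was 76.0 CPM in NCD, 28.5 and 28.0 CPM in HFD and 49.96 CPM in JQF. In monocytes it was 45.7 CPM in NCD, 10.3 and 14.7 CPM in HFD and 20.0 CPM in JQF.

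In DC Nr1d2 fell from 12.6 CPM in NCD to 4.86 and 5.99 CPM in HFD, and JQF held 13.6 CPM, level with NCD (edgeR log2 fold change -1.32 for HFD against NCD, SE 0.28, adjusted p = 0.0256). Per1 fell from 77.2 CPM to 45.7 and 46.8 CPM, with 53.8 CPM in JQF (edgeR log2 fold change -0.85, SE 0.14, adjusted p = 0.0137). Per2 fell from 7.18 CPM to 2.93 CPM in both HFD libraries, with 5.52 CPM in JQF (edgeR log2 fold change -1.41, SE 0.34, adjusted p = 0.0358). DESeq2 called none of these 3, at adjusted p values of 0.141, 0.0718 and 0.29 in the same order. In neutrophils Ciart was 7.14 CPM in NCD, 45.4 and 14.5 CPM in HFD and 22.1 CPM in JQF (edgeR log2 fold change 2.06, SE 0.66, adjusted p = 0.0209). The NCD value rested on 4 UMIs, the change was 1.00 without HFD_1 and 2.66 without HFD_2, and the call was lost with DESeq2 (adjusted p = 0.657), the stricter cell filter (0.0668) and types from clusters (0.0906). Neutrophil Per1 did not separate the groups, at 296 CPM in NCD, 323 and 236 CPM in HFD and 235 CPM in JQF.

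Per1 was set beside lists of stress genes, since it also responds to such signals. In DC, where Per1 fell, 8 of 13 immediate early and dissociation genes and 5 of 5 cAMP response genes fell, and their summed levels were 23411 and 4468 CPM in NCD against 8566 to 14648 and 719 to 1198 CPM in the other libraries. In endothelial cells, where Per1 rose, 11 of 13 immediate early genes and 2 of 5 cAMP genes fell, with summed immediate early levels of 7609 CPM in NCD and 2704 to 2862 CPM in the other libraries. Of 6 glucocorticoid response genes, 3 rose and 2 fell in endothelial cells, and the risers included Fkbp5 (edgeR log2 fold change 0.95, adjusted p = 0.00249) and Klf9 (0.91, adjusted p = 0.00508). The summed level of the 6 did not set NCD apart there. It was 2277 CPM in NCD, 1922 and 2309 CPM in HFD and 2206 CPM in JQF. In DC and macrophages 2 of these 6 rose and none fell, in B cells and neutrophils 1 rose, and in T cells 1 rose and 1 fell. All these counts are for HFD against NCD by edgeR, where 21% of all genes were called in DC, 18.4% in B cells, 15.6% in endothelial cells, 12.6% in neutrophils, 8.83% in macrophages and 6.43% in T cells. In B cells 4 of 13 immediate early genes fell and all 5 cAMP genes did, in T cells 2 of 13 and 4 of 5, in macrophages 5 of 13 and 1 of 5, and in neutrophils 2 of 13 rose and 2 of 5 fell. The part of these responses in the clock gene results was not tested.

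Hepatocytes were few (121 in NCD, 66 and 263 for the HFD pair, 72 for JQF), and their median mitochondrial share ran from 0.0533% to 4.72% across the libraries. Dbp was 20.8 CPM in NCD (14 UMIs), 59.6 and 141 CPM in HFD (57 and 282 UMIs) and 65.2 CPM in JQF (32 UMIs), with NCD lowest. Arntl went the other way, with 32.6 CPM in NCD (22 UMIs), 7.32 and 3.49 CPM in HFD (7 UMIs each) and 12.2 CPM in JQF (6 UMIs). The log2 fold changes were 2.45 for Dbp (SE 0.83) and -2.51 for Arntl (SE 0.66), at edgeR adjusted p values of 0.144 and 0.122. Over the alternatives the Dbp value ran from 1.64 without HFD_2 to 4.36 with the stricter cell filter, and that of Arntl from -2.997 without HFD_1 to -2.001 without HFD_2. These p values depended on the settings: with DESeq2 size factors in edgeR they were 0.00224 and 0.014, and DESeq2 itself called neither gene. Over all genes, the count called was 0 here and with types from clusters, 453 with DESeq2, and 2262 to 3952 with other scalings, no gene filter or stricter filters of cells or types. The hepatocytes of the groups also lay in different clusters. Cluster 25 held 77 of the NCD hepatocytes and 19, 13 and 16 of HFD_1, HFD_2 and JQF, whereas cluster 22 held 2 of NCD and 36, 239 and 20 of the others. Within cluster 25 Dbp was 22.7 CPM in NCD, 38.5 and 71.8 CPM in HFD and 56.2 CPM in JQF, a smaller difference than over all hepatocytes. Arntl there rested on 12 UMIs in NCD and on 3, 1 and 0 UMIs in the other libraries. Tef, the other PAR bZIP gene, held 66.8 CPM in NCD, 49.1 and 51.9 CPM in HFD and 71.3 CPM in JQF, with an edgeR adjusted p of 0.708.

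Dbp was also counted against Arntl within each library, a ratio of 2 genes of the loop that needs no scaling. It is given as UMIs of Dbp per 100 UMIs of Arntl and compared between libraries only. In endothelial cells NCD had 8.14, the HFD libraries 26.5 and 40.0, and JQF 30.2. T cells had 4.93 in NCD against 9.64, 10.7 and 9.21, and B cells had 2.85 in NCD against 9.22, 15.4 and 8.50 in the same order. NCD was the lowest library in each of these, and also in hepatocytes, at 63.6 against 814, 4029 and 533, and in macrophages, at 12.7 against 25.6, 22.1 and 14.7. In DC NCD lay among the others, at 20.0 against 12.2, 16.8 and 24.5. The B cell, DC and macrophage values of NCD rested on 9 or 10 Dbp UMIs, and no test was made. Pearson correlations were taken over the 28 sums of a library and a tested type, with each gene centred within its type. Arntl and Dbp had a correlation of -0.83, a description over sums that share 4 libraries. These sums include neutrophils, with 3 to 6 Arntl UMIs a library, and hepatocytes, with 6 to 22. How far this correlation and the others given here rest on such low counts was not tested. The other genes had correlations with Arntl between -0.44 (Ciart) and 0.56 (Nr1d2), with Nr1d1 at -0.19, Per1 at 0.20 and Per2 at 0.40. By the same measure the genes most like Dbp were Efhd2, Sars, Denr, Rraga and Aamp (0.82 to 0.86), and those most like Arntl were Atp11b, Erc1, Sptbn1, Akap9 and Rnf20 (0.93 in each).

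**Figure D5:**
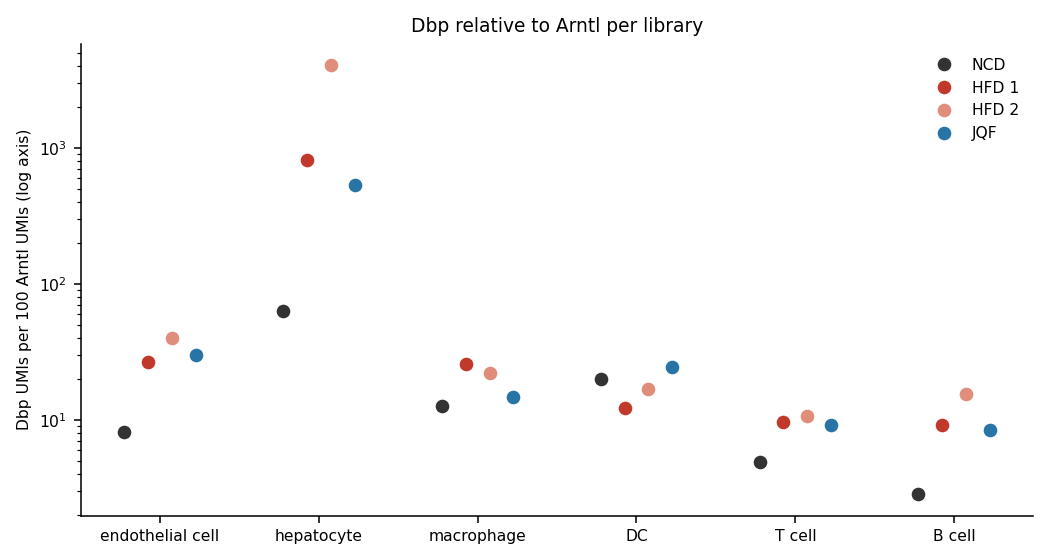
Dbp UMIs per 100 Arntl UMIs in each library and type, on a log axis. The NCD point is the lowest in endothelial cells, hepatocytes, macrophages, T cells and B cells, and lies among the others in DC.

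Averaged over the 7 tested types with equal weight, Arntl was 52.2 CPM in NCD, 34.1 and 29.5 CPM in HFD and 33.5 CPM in JQF, and Nr1d2 was 63.1, 26.7, 33.3 and 43.9 CPM in the same order. Dbp was 6.05, 15.1, 26.7 and 15.1 CPM, a mean in which hepatocytes (141 CPM in HFD_2) weigh most. Summed over all kept cells Dbp was 5.57, 6.42, 8.57 and 11.1 CPM, with a smaller HFD difference and JQF highest. NCD lay above both HFD libraries for 5 of 10 genes, Arntl, Nr1d2, Per1, Per2 and Tef, which 40.1% of the 14568 genes at a mean of 1 CPM or more did too. With types from clusters Per1 in NCD lay between the HFD libraries, at 85.8 CPM against 85.9 and 76.3 CPM. For Per1 the order turned when all kept cells were summed, with 38.8 CPM in NCD and 66.8 and 57.3 CPM in HFD. Npas2 and Per3 then lay above both HFD libraries in NCD, which made 6 of 10 genes, against 42.3% of 14834 genes. In the mean over types JQF lay above both HFD libraries for 5 of 10, Nr1d1, Nr1d2, Per2, Per3 and Tef, against 30.4% of the 14568 genes. With types from clusters Arntl joined these, at 34.1 CPM in JQF against 33.2 and 29.8 CPM in HFD. With all kept cells summed JQF lay above both for 9 of 10, against 31.8% of 14834 genes, and the mixture of cell types then differs between the libraries.

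Of 19 other genes of the clock pathway, 109 pairs with a tested type passed the filter, 5 rose and 18 fell in HFD against NCD by edgeR, where 0% to 21% of all genes were called in a type. Cry1, a repressor that works with the PER proteins, fell in endothelial cells from 45.9 CPM in NCD to 18.95 and 22.3 CPM (edgeR log2 fold change -1.25, adjusted p = 2.85e-04) and in macrophages from 50.9 to 10.95 and 12.9 CPM (edgeR log2 fold change -2.01, adjusted p = 0.0296). Nampt, the enzyme of NAD synthesis that the clock drives, fell in endothelial cells, DC and B cells (edgeR log2 fold changes of -0.98, -1.23 and -0.84) and rose in neutrophils (2.30), as Bhlhe40, another repressor of the loop, did there (1.19). Bhlhe40 fell in DC by 1.08 on the log2 scale. In T cells, the genes that fell were Usp2, a deubiquitinase of the clock (-3.63), Hlf, the third PAR bZIP factor (-1.73), Rora, an activator of Arntl (-1.45), Nfil3, the D-box repressor (-1.25), and Cry2 (-1.22). Usp2 fell also in DC (-1.66) and B cells (-3.72), Rora in B cells (-2.38) and Nfil3 in DC (-2.52). The kinase genes Wee1 in B cells (2.56) and Csnk1e in endothelial cells (0.79) rose. Fbxw11, a ubiquitin ligase subunit, fell in DC (-1.44) and macrophages (-1.01). DESeq2 did not call Cry1 in endothelial cells (adjusted p = 0.202), Nampt there (0.0543) or in B cells (0.476), Bhlhe40 in neutrophils (0.209), Cry2 in T cells (0.152), Csnk1e (0.236), or Wee1 (0.191), Usp2 (0.373) and Rora (0.32) in B cells. Types from clusters ended the calls of Cry1 and Fbxw11 in macrophages, Nfil3 and Cry2 in T cells, Csnk1e, and Nampt and Rora in B cells, and Rora there went from -2.38 to -0.58. The stricter cell filter ended that of Fbxw11 in macrophages (adjusted p = 0.0529). In T cells with Cd8a or Cd8b1, Cry2 (adjusted p = 0.0763) and Hlf (0.262) were not called, and Hlf was -0.77. Csnk1e was 1.19 in endothelial cells outside the NCD clusters. The median log2 fold change of this list was -0.70 in T cells, -0.53 in DC, -0.41 in B cells, -0.39 in neutrophils, -0.36 in endothelial cells, -0.21 in hepatocytes and -0.18 in macrophages, beside medians of -0.02 to 0.11 over all genes tested.

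The second question was whether JQF differed from HFD. Neither edgeR nor DESeq2 called any of the 60 pairs, and 10 had an unadjusted p under 0.05 in edgeR and 2 in DESeq2. In edgeR these were 4 of 10 in T cells and 3 of 10 in DC. The rest were 1 of 8 in B cells, 1 of 8 in hepatocytes and 1 of 9 in macrophages. All genes at that threshold numbered 1408 of 14882 in T cells, 1482 of 14358 in DC and 1238 of 10989 in B cells. They numbered 1043 of 8977 in hepatocytes, 1253 of 13064 in macrophages, 972 of 13605 in endothelial cells and 529 of 8486 in neutrophils. The share of all genes called by edgeR was 0.482% in B cells, 0.0836% in DC, 1.61% in endothelial cells, 0% in hepatocytes, 0.023% in macrophages, 0.778% in neutrophils and 0.356% in T cells. By DESeq2 it was 0.0546%, 0.286%, 0.103%, 0.234%, 0.276%, 0.0354% and 1.3% in the same order. JQF is a single library, so its own spread is unknown. Nr1d2 had the lowest unadjusted p values in several types. In DC its JQF level of 13.6 CPM was 2.51 times the HFD mean (edgeR log2 fold change 1.39, SE 0.24, adjusted p = 0.132), in B cells 1.72 times (0.90, SE 0.24, adjusted p = 0.17), in T cells 1.60 times (0.78, SE 0.18, adjusted p = 0.194) and in macrophages 1.65 times (0.70, SE 0.24, adjusted p = 0.479). JQF lay above both HFD libraries for Nr1d2 in each of these, and in hepatocytes between them. Without the gene filter 7 pairs were called by edgeR, among them Nr1d2 in T cells (adjusted p = 0.036) and Nr1d1 in DC (7.06e-04). Calls over all genes rose too, to 1.88% in T cells, 3.5% in DC, 3.67% in macrophages and 2.09% in B cells, the types that held these pairs. Nr1d1 in DC was 2.38 CPM in JQF against 0.293 and 0.125 CPM in HFD and 0 UMIs in NCD, and the HFD_2 value lay below the level that RNA outside cells could give.

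The third comparison set JQF against NCD. Of the 60 pairs 3 were called by edgeR and 1 by DESeq2, counts near the shares of all genes over the tested types, 4.7% and 1.71%. Endothelial Nr1d1 was 8.72 times as high in JQF as in NCD (edgeR log2 fold change 2.97, SE 0.31, adjusted p = 2.18e-19). DESeq2 also called it, among 1.98% of endothelial genes, and called 0.391% of genes in B cells, 2.72% in DC, 0.134% in hepatocytes, 1.19% in macrophages, 1.13% in neutrophils and 3.19% in T cells. Endothelial Dbp was 3.06 times as high (edgeR log2 fold change 1.47, SE 0.47, adjusted p = 0.0226), and that call was lost with 4 alternatives, among them DESeq2 (adjusted p = 0.658). Here 9.63% of all endothelial genes were called. In B cells, with 8.56% of genes called, Arntl was lower in JQF by 0.95 on the log2 scale (edgeR log2 fold change -0.95, SE 0.25, adjusted p = 0.0442), a call that 4 alternatives lost. No clock gene was called in DC (7.02% of all genes), neutrophils (7.33%), T cells (0.591%), macrophages (0%) or hepatocytes (0%). This comparison shares its NCD library with the first and has 1 library on each side, so its SE and p values take their spread from the HFD pair and do not measure how mice of either group vary. Among the other pathway genes 9 of 109 pairs were called, beside the 0% to 9.63% of all genes by type, with Nampt lower in JQF in endothelial cells (-1.07) and DC (-1.20) and higher in neutrophils (1.98).

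RNA outside cells was read from barcodes with at most 100 UMIs. Scaled by Alb, it could make up 0.55% to 6.2% of the UMIs of a type other than hepatocytes. For the 14 pairs named above as changed it came to at most 10.9% of a level, for Per1 in endothelial cells of JQF, and to at most 6.15% for the others. Several of the genes overlap another gene in GENCODE M21. Dbp (chromosome 7, 45705088 to 45710203) overlaps Sphk2, Nr1d1 (chromosome 11, 98767932 to 98775333) overlaps Thra, and Ciart (chromosome 3, 95878503 to 95882251) overlaps an antisense gene, each on the opposite strand, whereas Per3 (chromosome 4, 151003652 to 151044665) overlaps Camta1, and Npas2 (chromosome 1, 39193731 to 39363236) the pseudogene Gm3617, on the same strand, so the counts of both are uncertain.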

How the data were processed

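The deposited values are UMI counts per gene and barcode from the 10x Genomics 3′ v3.1 workflow, with no normalization. The submitters' processing notes name Cell Ranger 6.0.1, Seurat 4.0.3 and mm10, whereas the file headers name other Cell Ranger versions, so it is unclear if intronic reads count. Cells with 500 genes or more and at most 20% mitochondrial UMIs were kept (scanpy 1.11.5). A cell took the type whose 4 best markers scored 1.5 times or more above the next type, with at least 2 markers detected. Cells between types were left unnamed, and no doublet caller was run. Counts were summed per library and type, and types with 50 or more cells in every library were tested with edgeR 4.0.16 in R 4.3.3 (quasi-likelihood, TMM, filterByExpr, group as the only term, all 4 libraries, 1 residual degree of freedom). Adjustment was Benjamini-Hochberg over all genes of a type at 0.05. DESeq2 1.42.0, other scalings, filters and type definitions, and leaving out each HFD library were alternatives. Because replicate numbers of single libraries pair nothing, no block was used. Intervals are exact Poisson 95% intervals and cover counting error only. In data simulated for T cells, macrophages and endothelial cells, 88%, 62% and 86% of 2-fold changes were recovered, with 9, 7 and 15 false calls. These changes were placed only in genes with a mean above 50 UMIs, and all genes had the same spread. The recovery therefore does not cover clock genes on fewer UMIs or with a larger spread. The simulated NCD library varied like the HFD pair and had no difference of animal or cell mixture. The false calls therefore do not show how many a single NCD mouse would give. All 10 clock genes were named, other pathway genes only where called (2 of these are counted but not reported here by name), and likeness was taken among genes at a mean of 20 CPM or more. The members and lists were chosen with earlier results of these data known.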

Additional observations from a re-analysis of the deposited data

Results flagged for a closer look

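The results flagged are differences between cell types in the HFD against NCD change, each tested by an interaction term in edgeR between endothelial cells and 1 other type. These fits were added after seeing the data, and each leaves 1 residual degree of freedom. On the log2 scale, the change in macrophages minus that in endothelial cells was -5.18 for Nr1d1, -4.14 for Ciart, -2.67 for Per2, -1.22 for Per1 and -1.21 for Nr1d2. In T cells the difference was -2.78 for Per2, -1.90 for Npas2, -1.88 for Nr1d1 and -1.36 for Per1. In DC it was -2.10 for Per2 and -1.68 for Per1, and in B cells -1.45 for Per1. Nr1d1 in endothelial cells was 9.04 CPM in NCD and 58.1 to 78.9 CPM in the other libraries, whereas in macrophages it was 46.6 CPM in NCD and 4.31 to 16.4 CPM in the others. Endothelial Npas2 was 4.76 CPM in NCD, 6.52 CPM in HFD_2 and 18.95 CPM in HFD_1, the latter from 105 cells. Within T cells Npas2 depended on the Cd4 and Cd8 lineage markers, and the T cells of the libraries lay in different clusters. The part of that mixture in the Npas2 difference was not tested. All these differences rest on the single NCD library, and for Per1 the endothelial cells outside the NCD clusters had a log2 fold change of 0.36 (edgeR adjusted p = 0.452).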

How the results depend on the processing

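For HFD against NCD, 14 pairs were called, 6 with DESeq2 and 10 to 18 under the other alternatives, which include 3 restrictions of cells chosen after seeing the data. Over all genes and types the share called was 12.3%, 5.38% with DESeq2 and 10.1% to 16.6% with the alternatives that keep all cells of the 7 types or filter them more strictly. For JQF against HFD the count of 0 became 1 without the TMM factor and 7 without the gene filter, while the share of all genes called went from 0.481% to 1.56% and 2.15%. For JQF against NCD the count of 3 became 1 with DESeq2, 6 without the gene filter and 1 with types from clusters, and the share of all genes from 4.7% to 1.71%, 6.78% and 4.08%. Members with a mean level in JQF above both HFD libraries numbered 5, and 9 when all kept cells were summed. Of all genes at a mean of 1 CPM or more, 30.4% and 31.8% did so in the same order. For single genes, the pairs followed were those called in the main fit, of the clock genes and the other pathway genes, and a few uncalled pairs picked by hand. Of their 420 alternative values 334 kept direction and side of the threshold, 64 no longer passed it and 22 newly passed it. Of the losses 26 came with DESeq2 and 18 with types from clusters. Only called pairs could be lost and only the few uncalled ones gained, so the 2 counts are not shares of the same base. Among these followed fold changes no direction was reversed. The level of Per1 did turn: NCD was above both HFD libraries in the mean over types. With all kept cells summed it was below them, at 38.8 CPM against 66.8 and 57.3 CPM. The causes were not tested. Without the TMM factor, the median over all genes for HFD against NCD shifted on the log2 scale by 0.142 in endothelial cells, 0.116 in DC and -0.162 in hepatocytes. Leaving out 1 HFD library leaves no residual degree of freedom, so only fold changes could be recomputed, and the counts of calls were not. Of these, 15 moved by more than the spread of the HFD pair without HFD_2 and 4 without HFD_1. NCD and JQF cannot be left out. No paired analysis was possible because NCD and JQF have 1 library each, so the groups share fewer than 2 replicate numbers. Several levels rested on few UMIs, among them Nr1d1 in DC and Arntl in hepatocytes.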
